A study of Mus musculus with 7 samples.

Results

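Inner retinal neuron identity genes are genes whose expression marks the bipolar, amacrine, horizontal and ganglion cells of the retina. The list held 44 genes, all found by symbol among the 54532 genes of the deposited mouse table: 15 of bipolar, 12 of amacrine, 5 of horizontal and 12 of ganglion cells. Their messenger RNA was measured by sequencing in eye samples of mice that were Agbl5 knockout (3 libraries), heterozygous (2 libraries) or wildtype (2 libraries). Agbl5 encodes a deglutamylase that acts on the tubulin of microtubules, and the series asks what the gene does in photoreceptors. The labels name the tissue as eyeball, while the extraction protocol speaks of retinal tissue; the age, strain and sex of the mice and the kind of knockout allele are not given in the sources used here. Nothing states that the libraries of a genotype came from separate animals, so p-values measure only the spread between these samples.

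Photoreceptors signal to bipolar and horizontal cells in the outer retina. Bipolar cells pass the signal inward, ON bipolar cells through a metabotropic glutamate receptor that closes the TRPM1 channel when glutamate binds, and OFF bipolar cells through ionotropic glutamate receptors. Amacrine cells, most of which release GABA or glycine, shape the signal in the inner retina, and ganglion cells carry it to the brain along the optic nerve. The comparisons below ask how much RNA of these downstream neurons was present when Agbl5 was disrupted. In whole tissue, fewer cells of a type and less RNA per cell cannot be told apart, and RNA of other cells is part of every value.

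Agbl5 itself had 1.53, 1.73 and 1.26 FPKM (fragments per kilobase of exon, scaled to sequencing depth) in the knockout libraries, 4.21 and 5.34 FPKM in the heterozygous and 9.89 and 8.57 FPKM in the wildtype libraries, so the genotypes did not overlap and followed their labels. The libraries held 12244707 to 14339701 whole reads recovered from the deposited values. Knockout 1 and heterozygous 1 stood apart through lens transcripts, whose 24 genes summed to 8708 and 5546 FPKM there, against 29.7 to 93.9 FPKM in the other libraries. Rod genes summed to 13173 to 13760 FPKM in knockout, 14545 to 15384 FPKM in heterozygous and 14424 to 14871 FPKM in wildtype libraries. Microglial genes summed to 50.2 to 53.0 FPKM in knockout, 28.2 to 29.9 FPKM in heterozygous and 28.6 to 30.8 FPKM in wildtype libraries. Of these, 3 of 8 tested genes were called higher in knockout than in wildtype, where 0.323% of all tested genes were called in either direction. Skeletal muscle genes summed to at most 4.80 FPKM in any library, with Myh1 and Myh4 at 0 in all 7. Y-linked genes were at 0 in knockout 3 and wildtype 2 alone. Red blood cell genes summed to 31.1 to 43.5 FPKM in knockout, 32.7 and 49.5 FPKM in heterozygous and 68.6 and 47.4 FPKM in wildtype libraries, with 4 of 4 tested genes below 0 between knockout and wildtype (median log2 change -0.52, 0 called). Pigment epithelium genes summed to 89.2 to 280.2 FPKM in knockout, 246 and 136 FPKM in heterozygous and 52.7 and 164 FPKM in wildtype libraries, with 9 of 11 tested genes above 0 (median 0.26, 0 called). The lens and Y-linked levels entered alternatives as covariates; the part of the other levels in the results below was not tested.

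No inner retinal gene passed the threshold in any comparison. Of the 44 genes, 41 reached the filter of a mean of 1 FPKM over the 7 libraries and were tested with limma on log2(FPKM + 1), with p-values adjusted over all 15472 tested genes and a threshold of 0.05. Between knockout and wildtype 0 of 41 were called, while 0.323% of all tested genes were. The unadjusted p was under 0.05 for 2 of the 41, Nefl and Thy1, both lower in knockout (3.24% of all genes were lower at that p), and the lowest adjusted p was 0.542. Between knockout and heterozygous libraries 0 of 41 were called (0.317% of all genes), with 5 at an unadjusted p under 0.05, all lower (4.91% of all genes): Vsx1, Isl1, Lrtm1, Gad2 and Stmn2. Between knockout and all 4 control libraries together, 0 of 41 were called (0.614% of all genes), with 3 at an unadjusted p under 0.05, all lower (5.46% of all genes): Vsx1, Lrtm1 and Stmn2. Between heterozygous and wildtype 0 of 41 were called, as were 0% of all genes, of which 619 had an unadjusted p under 0.05; 3 of the 41 did, all lower in heterozygous libraries (2.46% of all genes): Gpr179, Slc6a9 and Thy1. The limma method voom, on the recovered reads of 40 of these genes, also called 0 in each of the 4 comparisons. Its unadjusted p was under 0.05 for 4, 5 and 6 of the 40 for knockout against wildtype, all controls and heterozygous libraries. Over all 14796 genes in that fit the counts were 1142, 1847 and 1882. For heterozygous against wildtype they were 3 of the 40 and 554 of all genes. These comparisons share libraries and are not independent of each other.

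Most of the genes lay slightly lower in knockout than in wildtype libraries. The log2 change was below 0 for 36 of 41 genes (87.8%), against 51% of all tested genes, and its median was -0.10, against -0.00 over all tested genes. It was also below 0 for 16 of 20 rod genes and 10 of 10 cone genes (medians -0.09 and -0.16), but for 0 of 8 microglial genes. The lower levels were thus not particular to inner retinal genes. In 12 of the 41 (29.3%) every knockout library was below every wildtype library, and in 0 every knockout library was above, against 14.7% and 13.5% of all tested genes; without regard to direction, 28.2% of all genes had groups that did not overlap. The 12 were the bipolar genes Vsx1 and Lrtm1, the amacrine genes Gad1, Gad2, Slc6a9, Tfap2b and Pax6, and the ganglion cell genes Rbpms, Slc17a6, Nefl, Thy1 and Stmn2. Against the heterozygous libraries the picture was mixed, with 24 of 41 genes below 0 (48.6% of all genes) and a median of -0.06; groups did not overlap for 7 lower and 1 higher (14.5% and 15.3% of all genes). Heterozygous against wildtype libraries gave 27 of 41 below 0 (52.2% of all genes) and a median of -0.06, with 10 lower and 2 higher without overlap (15.7% and 14.3% of all genes). Against all 4 controls 30 of 41 were below 0 (49.2% of all genes), and the knockout libraries were below every control for 6 genes (14.6%) and above for 0, where 6.26% and 6.75% of all genes were. The 95% interval of the change of FPKM + 1 between knockout and wildtype lay within 1.5-fold either way for 38 of 41 genes. The same held for 78.3% of all tested genes. The exceptions among the 41 were Tfap2b, Slc32a1 and Calb1. For low genes such as Lhx1, with a mean of 1.13 FPKM, this bound allows larger changes of FPKM itself.

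**Figure D1:**
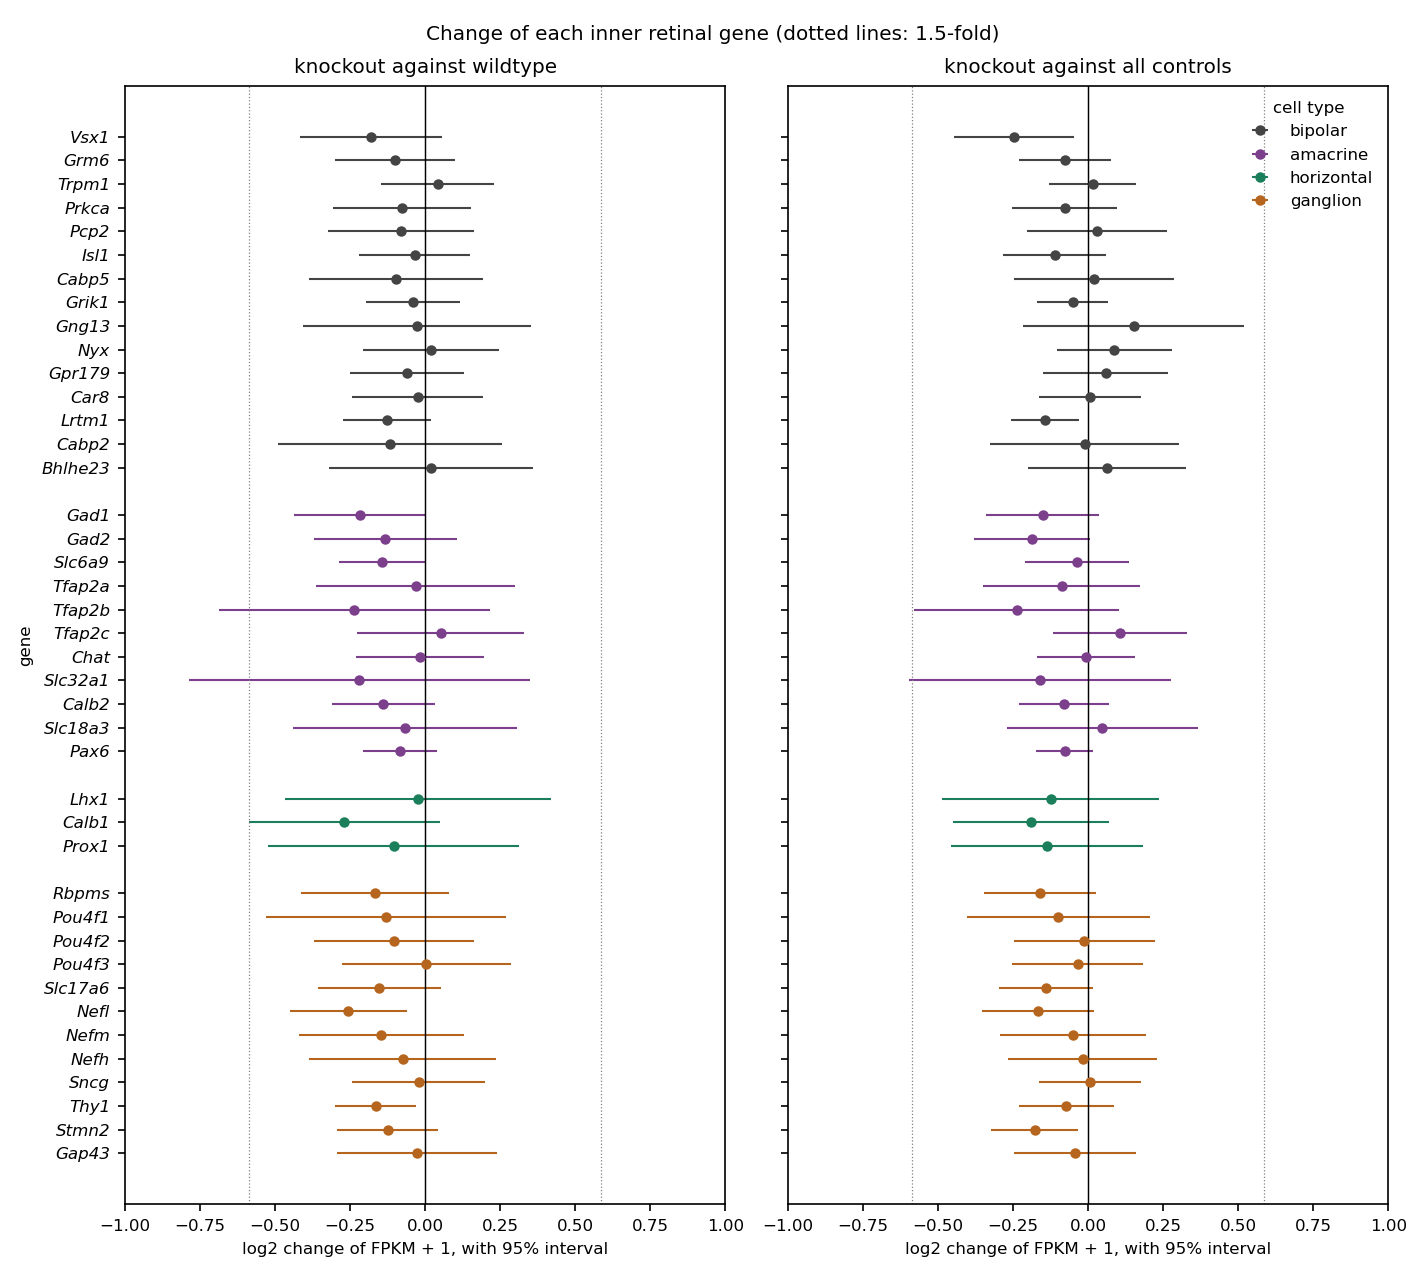
Log2 change of FPKM + 1 of each of the 41 tested genes with its 95% interval, for knockout against wildtype and knockout against all 4 control libraries, coloured by cell type, with dotted lines at 1.5-fold. Most points lie slightly left of 0 in the first comparison, 36 of 41, against 51% of all tested genes. No gene passed the adjusted threshold in either.

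Rescaling to the same FPKM sum moved these changes lower, together with the median of all tested genes. When every library was rescaled to the same FPKM sum, the median of all tested genes moved to -0.16 between knockout and wildtype, and the medians were -0.22 for bipolar, -0.30 for amacrine and -0.30 for ganglion cell genes. A single gene, Gm23935, took 7.04% to 17.2% of the FPKM sum in knockout libraries, 5.95% and 11.3% in heterozygous and 5.45% and 2.16% in wildtype libraries. Without this gene and lens, red blood cell and mitochondrial genes in the sum, the all-gene median between knockout and wildtype was -0.015. With a factor from the median ratio of genes it was 0.0008. The part of Gm23935 alone in the shift was not tested.

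The bipolar cell genes of this list differed little between knockout and wildtype libraries. All 15 were tested, with a median log2 change of -0.06 between knockout and wildtype (12 of 15 below 0), 0.04 against heterozygous libraries and 0.01 against all controls, and without knockout 1 the median against wildtype was -0.00. For all 15 the 95% interval against wildtype lay within 1.5-fold on the scale of FPKM + 1. Mean levels over the 7 libraries ran down from 36.4 FPKM for Grm6, the ON bipolar glutamate receptor, through 36.3 FPKM for Lrtm1, to 4.29 FPKM for Cabp2, a calcium-binding protein. Along this order the ranges of neighbouring genes overlapped in 10 of 14 pairs, so that Grm6, Lrtm1, Trpm1 and Gng13 had no clear order among themselves. The median coefficient of variation over the 7 libraries was 8.70%, against 8.44% for all genes with a mean of 5 to 50 FPKM. A further list of bipolar cell genes, described below, had a lower median log2 change against wildtype, -0.15.

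**Figure D2:**
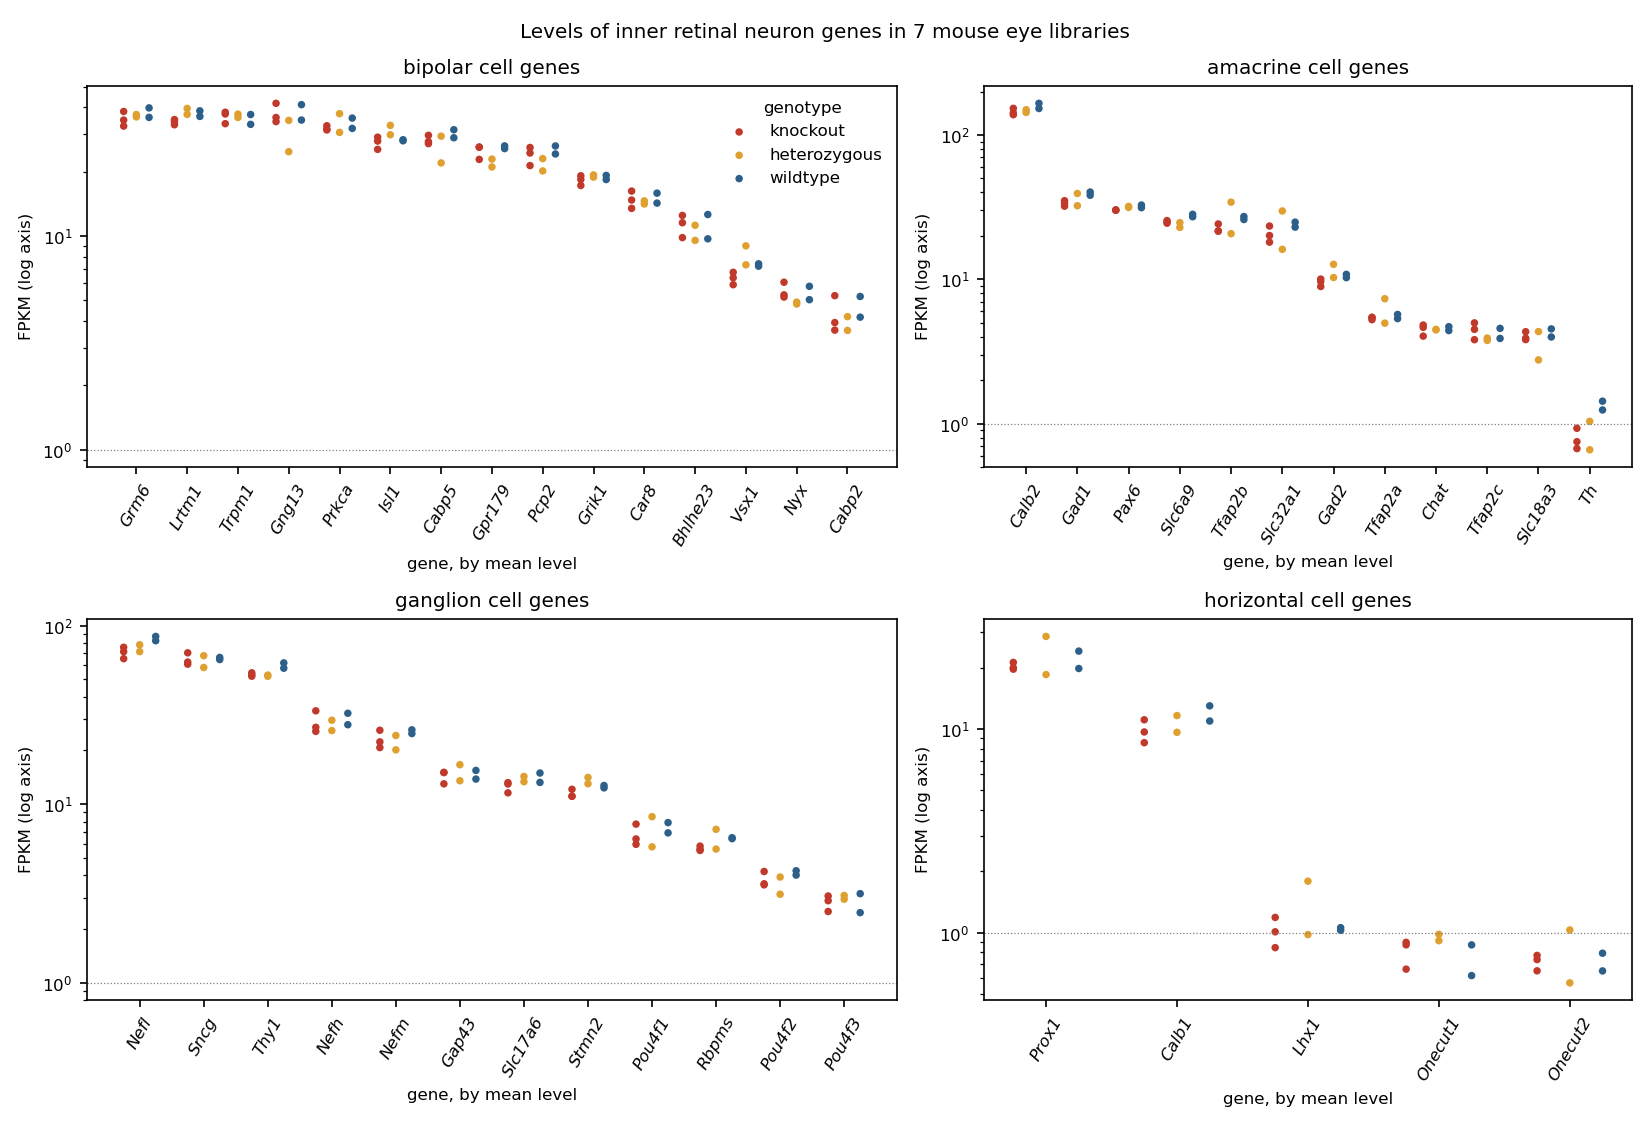
FPKM of each of the 44 genes in every library on a log axis, in 4 panels by cell type, with genes ordered by mean level and points coloured knockout, heterozygous and wildtype from left to right; the dotted line marks 1 FPKM. Differences between genotypes are small beside those between genes. Knockout and wildtype points do not overlap for 12 of the 41 tested genes, all lower in knockout. Of all tested genes, 14.7% were lower without overlap and 28.2% did not overlap in either direction. Th, Onecut1 and Onecut2 sit around or under the line.

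Many bipolar cell genes are under the homeodomain factors OTX2 and CRX, whose core site reads TAATCC. In the 250 bases before the RefSeq gene starts of build GRCm38.p6, on either strand, these letters stood in 5 of 19 bipolar windows (26.3%), 1 of 14 amacrine, 0 of 4 horizontal and 0 of 5 ganglion cell windows, and in 5.84% of all 20111 protein-coding windows. The windows covered 30 of the 44 genes. TAATTA, a core of other homeodomain factors that shares its first letters with TAATCC, stood in 1 of the 19 bipolar windows and in 4.28% of all windows. Among the 5 bipolar genes with TAATCC (Trpm1, Isl1, Cabp5, Lrtm1 and Cabp2), the windows below are shown because they belong to the cation channel of ON bipolar cells, a calcium-binding protein of bipolar synapses and a gene lower in every knockout than in every control library. Capitals mark TAATCC or, where it lies on the opposite strand, GGATTA.
Trpm1 chr7:64153585-64153834 (+): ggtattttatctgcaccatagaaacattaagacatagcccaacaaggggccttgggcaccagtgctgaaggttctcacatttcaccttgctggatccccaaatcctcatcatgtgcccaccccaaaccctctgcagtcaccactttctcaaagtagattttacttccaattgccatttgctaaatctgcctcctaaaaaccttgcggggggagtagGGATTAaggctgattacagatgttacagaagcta
Cabp5 chr7:13397905-13398154 (+): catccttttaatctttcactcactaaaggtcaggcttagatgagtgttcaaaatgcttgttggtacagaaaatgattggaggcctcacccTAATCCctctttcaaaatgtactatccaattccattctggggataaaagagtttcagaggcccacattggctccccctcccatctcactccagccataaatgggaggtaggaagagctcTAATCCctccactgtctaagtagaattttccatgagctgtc
Lrtm1 chr14:29017958-29018207 (+): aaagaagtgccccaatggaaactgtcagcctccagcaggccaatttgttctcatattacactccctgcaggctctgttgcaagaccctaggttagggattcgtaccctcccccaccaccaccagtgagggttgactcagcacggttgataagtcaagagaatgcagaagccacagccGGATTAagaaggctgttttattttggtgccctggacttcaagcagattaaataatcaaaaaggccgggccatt
The core began 34 bases upstream of the start shown for Trpm1, 160 and 41 bases upstream in Cabp5, and 73 bases upstream in Lrtm1. The window of another Trpm1 start, chr7:64185209-64185458, held no TAATCC. A match describes the letters in the window and does not show binding.

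Lrtm1, a leucine-rich repeat membrane protein gene on chromosome 14 (GRCm38, 29018208 to 29033645, plus strand, 4 exons), had 33.2, 34.3 and 35.1 FPKM in knockout, 37.1 and 39.6 FPKM in heterozygous and 36.3 and 38.6 FPKM in wildtype libraries. Every knockout library was below every control library, although the highest knockout and lowest control value were close. The log2 change was -0.14 ± 0.05 (SE) against all controls (unadjusted p = 0.0198, adjusted p = 0.32 by limma) and -0.13 ± 0.06 against wildtype (adjusted p = 0.736). Vsx1, a homeodomain factor of cone bipolar cells on chromosome 2 (150680702 to 150689360, minus strand, 5 exons), had 6.38, 6.77 and 5.92 FPKM in knockout, 9.002 and 7.34 FPKM in heterozygous and 7.23 and 7.42 FPKM in wildtype libraries. Again the 3 knockout libraries were below all controls, with heterozygous 1 well above the other 3. Its log2 change was -0.25 ± 0.09 against all controls (adjusted p = 0.331) and -0.18 ± 0.10 against wildtype (adjusted p = 0.764). Grm6 had 32.7, 38.3 and 34.9 FPKM in knockout, 36.1 and 37.1 FPKM in heterozygous and 39.8 and 35.9 FPKM in wildtype libraries. Its groups overlapped (-0.10 ± 0.08 against wildtype, adjusted p = 0.845), and 11.05% of its exon bases overlap the opposite-strand gene Gm12660, from which this library kit cannot separate reads.

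The ON bipolar signalling cascade was followed through a list of 10 further genes of the receptor complex and G protein pathway. Of these, 1 was called in knockout against wildtype (0.323% of all tested genes were). It was Gnb3, which encodes a G protein beta subunit used in both cones and ON bipolar cells. Gnb3 had 258, 265 and 230.4 FPKM in knockout, 116 and 124.5 FPKM in heterozygous and 137 and 126 FPKM in wildtype libraries. All knockout values lay far above all controls. The rise was 0.92 ± 0.08 on the log2 scale against wildtype (adjusted p = 0.0129), 1.06 ± 0.08 against heterozygous (adjusted p = 0.00753) and 0.99 ± 0.08 against all controls (adjusted p = 0.0013). The call against wildtype was lost without knockout 1 (adjusted p = 0.0734), knockout 2 (0.0659), wildtype 1 (0.113) or wildtype 2 (0.183), without both lens-rich libraries (0.137), with a replicate block (0.114) and with libraries rescaled to the same FPKM sum (0.0628). The call against heterozygous was lost without heterozygous 1 (0.0695), without both lens-rich libraries (0.211) and with the block (0.128). The direction was kept in each, and all 19 alternatives kept the call against all controls. Against it, Gng13, the gamma subunit of the same ON bipolar G protein, had 35.9, 41.8 and 34.3 FPKM in knockout, 24.8 and 34.8 FPKM in heterozygous and 41.2 and 34.9 FPKM in wildtype libraries. These groups overlapped (-0.03 on the log2 scale against wildtype), and 51.6% of its exon bases overlap Chtf18 on the opposite strand. The ratio of Gnb3 to Gng13 was 7.18, 6.34 and 6.71 in knockout, 4.66 and 3.58 in heterozygous and 3.33 and 3.62 in wildtype libraries. Cone genes summed to 497 to 535 FPKM in knockout, 523 and 617 FPKM in heterozygous and 615 and 581 FPKM in wildtype libraries, so the summed cone level did not rise with Gnb3. In which cells Gnb3 rose cannot be told apart in whole tissue. The other 9 cascade genes were not called, and the list median was -0.10. Of these 9, 2 were lower in knockout at an unadjusted p under 0.05 by limma (3.24% of all genes). The next by p after Gnb3, Rgs9bp, which encodes a membrane anchor of regulators of G protein signalling, had an adjusted p of 0.634.

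**Figure D3:**
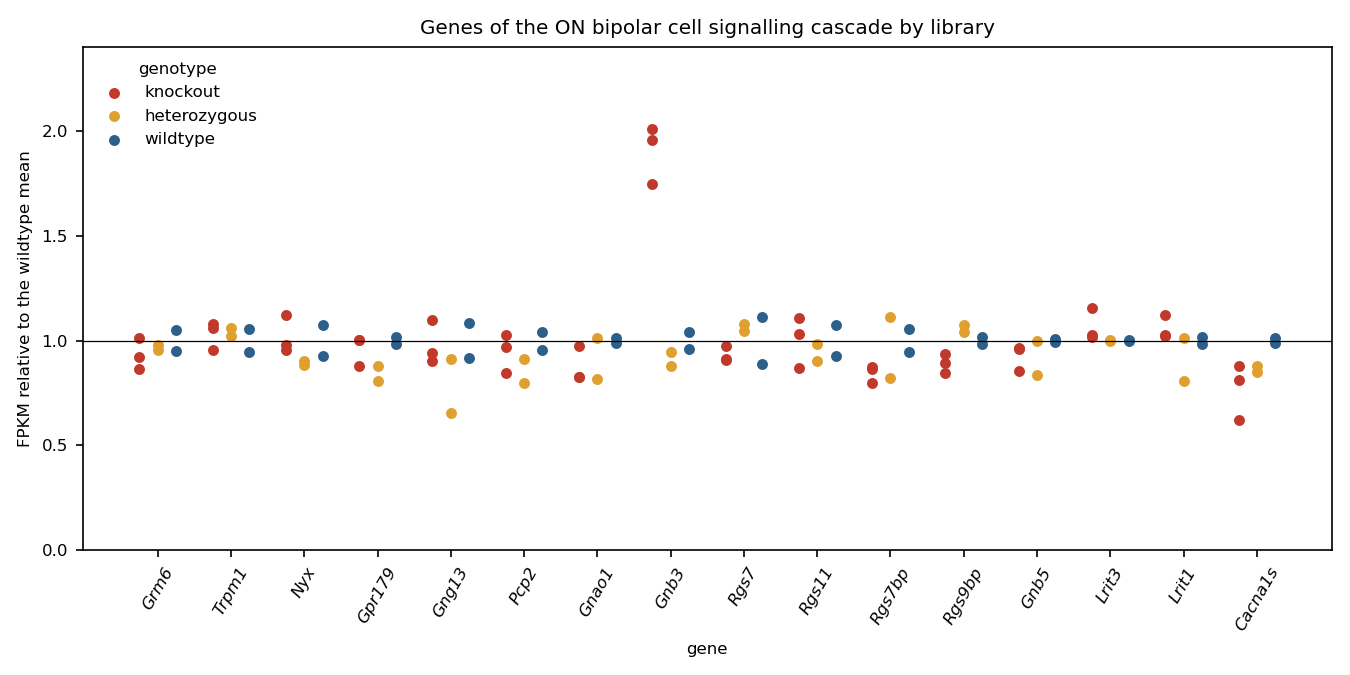
FPKM of 16 genes of the ON bipolar cell signalling cascade in each library, divided by the mean of the 2 wildtype libraries of that gene, coloured by genotype with knockout on the left. Gnb3 alone has all 3 knockout libraries far above the line at 1, between 1.75 and 2.01.

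Amacrine cell genes had a median log2 change of -0.13 against wildtype, -0.07 against heterozygous libraries and -0.08 against all controls, with 11 of 12 tested and 10 of the 11 below 0 against wildtype. Mean levels ran from 149 FPKM for Calb2, which encodes calretinin, to 0.960 FPKM for Th, and neighbours in that order overlapped in 5 of 11 pairs. Gad1 and Slc6a9, which serve the transmitters GABA and glycine, had the smallest p against wildtype. Gad1, the enzyme gene that makes GABA (chromosome 2, 70553072 to 70602014, plus strand, 21 exons), had 32.1, 35.1 and 33.6 FPKM in knockout, 39.3 and 32.3 FPKM in heterozygous and 38.2 and 40.2 FPKM in wildtype libraries. The knockout libraries were below both wildtype libraries, but heterozygous 2 lay among them, and the log2 change against wildtype was -0.22 ± 0.09 (adjusted p = 0.672). Gad2, the second GABA enzyme gene, averaged 9.54 ± 0.570 FPKM in knockout (SD, n = 3), 11.5 ± 1.71 FPKM in heterozygous (n = 2) and 10.5 ± 0.390 FPKM in wildtype libraries (n = 2). It was below every control in knockout (-0.19 ± 0.08 against all controls, adjusted p = 0.423). Slc6a9, the glycine transporter gene (chromosome 4, 117834506 to 117875198, plus strand, 22 exons), had 24.9, 24.5 and 25.5 FPKM in knockout, 24.7 and 22.9 FPKM in heterozygous and 27.1 and 28.2 FPKM in wildtype libraries. Knockout and heterozygous libraries overlapped each other and both lay below wildtype (knockout -0.14 ± 0.06, adjusted p = 0.674; heterozygous -0.21 ± 0.07, adjusted p = 0.974). Its exons overlap Ccdc24 in 27.8% of their bases. Pax6, a master regulator of eye development kept on in amacrine and ganglion cells, had 30.1, 30.1 and 30.3 FPKM in knockout, 32.0 and 31.5 FPKM in heterozygous and 31.3 and 32.7 FPKM in wildtype libraries. All knockout values were below all controls, by a small step (-0.08 ± 0.04 against all controls, adjusted p = 0.485). Calb2 had 138, 153 and 142 FPKM in knockout, 143 and 149.5 FPKM in heterozygous and 166 and 153 FPKM in wildtype libraries, which overlapped (-0.14 ± 0.07 against wildtype, adjusted p = 0.751).

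Tfap2b and Slc32a1, an amacrine transcription factor and the vesicular transporter of GABA and glycine, were the most uneven between the heterozygous libraries. Tfap2b had 21.6, 24.2 and 21.6 FPKM in knockout, 34.2 and 20.7 FPKM in heterozygous and 26.0 and 27.2 FPKM in wildtype libraries. Heterozygous 1 was the highest and heterozygous 2 the lowest of the 7 for both genes, and 24.9% of the exon bases of Slc32a1 overlap Gm14205. Th, which encodes the dopamine-making enzyme of a rare amacrine type, did not reach the filter: it had 0.672, 0.750 and 0.928 FPKM in knockout, 0.659 and 1.04 FPKM in heterozygous and 1.24 and 1.43 FPKM in wildtype libraries. The values rest on 21 to 51 reads a library; the knockout libraries were below both wildtype libraries and overlapped the heterozygous ones. Without the filter its log2 change against wildtype was -0.39 ± 0.15 (unadjusted p = 0.0397, adjusted p = 0.825). The starburst amacrine genes Chat and Slc18a3, which make and load acetylcholine, averaged 4.51 and 3.96 FPKM over the 7 libraries, and their groups overlapped in knockout against wildtype (-0.02 and -0.07).

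The 3 tested horizontal cell genes had a wider median spread over the libraries than the listed genes of the other cell types. Only Prox1, Calb1 and Lhx1 of the 5 passed the filter, all with changes below 0 against wildtype, a median of -0.10 and overlapping groups. Their median coefficient of variation was 16.1%, the value of Prox1, whose level was highest in heterozygous 1. The median was 11.3% for amacrine, 9.62% for ganglion and 8.70% for bipolar cell genes and 10.8% for all tested genes. A median of 3 genes says little about horizontal cells as a type. Calb1, which encodes calbindin (chromosome 4, 15881264 to 15908064, plus strand, 10 exons), had 8.58, 11.1 and 9.69 FPKM in knockout, 11.7 and 9.64 FPKM in heterozygous and 10.96 and 13.01 FPKM in wildtype libraries. Knockout 2 lay above wildtype 1 (-0.27 ± 0.13 against wildtype, adjusted p = 0.736, interval -0.59 to 0.05). Prox1, a homeodomain factor of horizontal cells that amacrine and bipolar cells also express (chromosome 1, 190118035 to 190170714, minus strand, 6 exons), had 21.3, 20.03 and 19.7 FPKM in knockout, 28.5 and 18.5 FPKM in heterozygous and 19.9 and 24.2 FPKM in wildtype libraries. The groups overlapped, and heterozygous 1 was far above heterozygous 2 (-0.10 ± 0.17 against wildtype, adjusted p = 0.921; 0.03 without wildtype 2). Lhx1, a LIM homeodomain factor that horizontal cells need to reach their layer, had 1.19, 1.01 and 0.844 FPKM in knockout, 1.79 and 0.978 FPKM in heterozygous and 1.06 and 1.03 FPKM in wildtype libraries. Heterozygous 1 again stood alone. Onecut1, a horizontal cell transcription factor gene, had 0.615 to 0.981 FPKM over the 7 libraries, and its relative Onecut2 had 0.566 to 1.03 FPKM, neither tested. Onecut1 shares 52.8% of its exon bases with Gm20649.

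Ganglion cell genes had a median log2 change of -0.13 against wildtype (11 of 12 below 0) and -0.06 against all controls, with all 12 tested and every interval against wildtype within 1.5-fold. Levels ran from 75.8 FPKM for Nefl to 2.87 FPKM for Pou4f3, with overlapping ranges in 7 of 11 neighbouring pairs. Nefl, the light neurofilament subunit gene of long axons (chromosome 14, 68083863 to 68089095, plus strand, 4 exons), had 65.2, 75.6 and 71.4 FPKM in knockout, 78.1 and 71.4 FPKM in heterozygous and 82.2 and 86.9 FPKM in wildtype libraries. Every knockout library was below both wildtype libraries and overlapped the heterozygous ones. The log2 change against wildtype was -0.26 ± 0.08 (unadjusted p = 0.0175, adjusted p = 0.542), and 32.8% of its exon bases overlap the neighbouring Nefm. Thy1, a surface protein gene of ganglion cells (chromosome 9, 44043384 to 44048579, plus strand, 5 exons), had 52.0, 54.4 and 53.0 FPKM in knockout, 52.0 and 52.8 FPKM in heterozygous and 61.8 and 57.7 FPKM in wildtype libraries. Knockout and heterozygous libraries overlapped, and both lay below wildtype (-0.16 ± 0.06 and -0.18 ± 0.06, adjusted p = 0.581 and 0.974). Stmn2, a growth-associated tubulin-binding protein gene (chromosome 3, 8509360 to 8561606, plus strand, 5 exons), had 11.1, 12.1 and 11.1 FPKM in knockout, 14.1 and 13.02 FPKM in heterozygous and 12.7 and 12.3 FPKM in wildtype libraries. All knockout values were below all controls (-0.18 ± 0.06 against all controls, adjusted p = 0.336). Sncg, which encodes gamma-synuclein, had 62.5, 70.4 and 60.8 FPKM in knockout, 58.3 and 67.8 FPKM in heterozygous and 66.3 and 64.5 FPKM in wildtype libraries, which overlapped (-0.02 ± 0.09 against wildtype). The ganglion cell transcription factors Pou4f1, Pou4f2 and Pou4f3 had means over the 7 libraries of 7.03, 3.80 and 2.87 FPKM, with log2 changes against wildtype of -0.13, -0.10 and 0.00.

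The highest and lowest values were spread unevenly over the libraries. Knockout 1 was the lowest library for 12 of 41 and the highest for 1 (14.9% and 14.2% of all genes). Knockout 2, in contrast, was the lowest for 2 and the highest for 5 (13.9% and 16.8%). Heterozygous 1 was the highest for 13 and the lowest for 9 (21.9% and 23.4%), and heterozygous 2 the lowest for 11 and the highest for 2 (16.2% and 13.7%). Wildtype 1 was the highest of the 7 for 10 of 41 genes and wildtype 2 for 7, with each the lowest for 1, whereas wildtype 1 and 2 were highest for 10.8% and 11.2% of all tested genes and lowest for 10.3% and 10.2%. By cell type, the median deviation of heterozygous 1 and heterozygous 2 from the mean of the 7 libraries was 0.12 and -0.14 on the log2 scale for amacrine genes and 0.39 and -0.12 for horizontal genes. Knockout 1 and heterozygous 1 are the 2 lens-rich libraries. Without both, the median against wildtype was -0.00 for bipolar, -0.090 for amacrine, -0.14 for horizontal and -0.088 for ganglion cell genes. Leaving out any single library kept all 4 medians against wildtype below 0, at -0.14 to -0.090 for amacrine and -0.18 to -0.087 for ganglion cell genes.

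**Figure D4:**
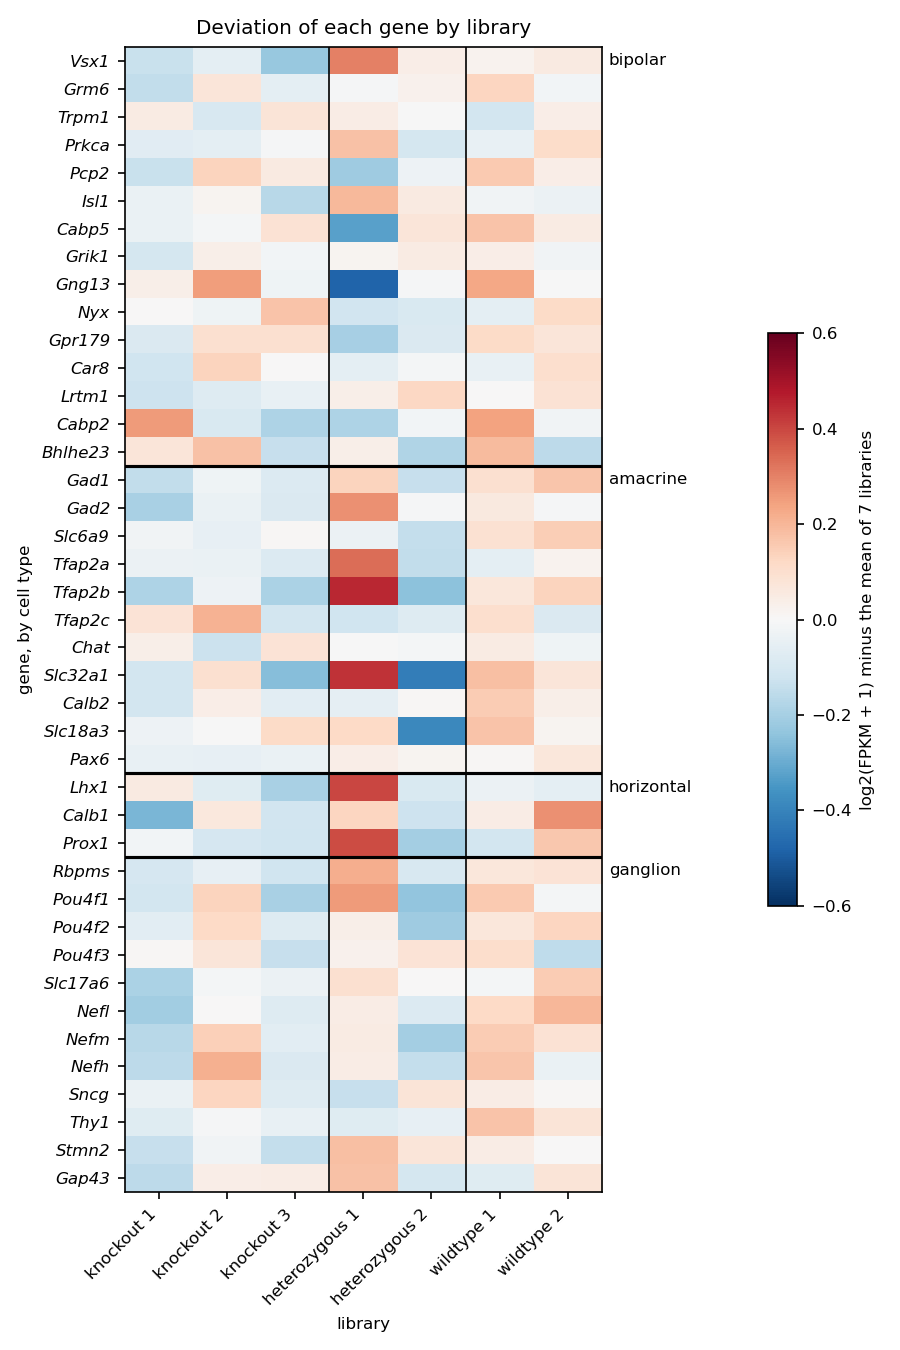
Deviation of log2(FPKM + 1) from the mean of the 7 libraries, for each tested gene (lines of the map, by cell type) and library (columns, knockout, heterozygous, wildtype). The wildtype columns are mostly above 0, knockout 1 is mostly below, and heterozygous 1 and heterozygous 2 lie on opposite sides for many amacrine and horizontal genes.

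Further genes of the same cell types, on lists of their own, gave no call in knockout against wildtype: 0 of 15 tested bipolar (median log2 change -0.15), 0 of 20 amacrine (-0.08), 0 of 8 horizontal (-0.10) and 0 of 19 ganglion cell genes (-0.16). Of all tested genes 0.323% were called, and their median was -0.00. In the same order, 3, 0, 1 and 2 genes were lower at an unadjusted p under 0.05 by limma (3.24% of all genes). Against all controls 3, 0, 0 and 4 were (5.46% of all genes). Scgn, a calcium-binding protein gene of cone bipolar cells, had 34.1, 36.1 and 34.2 FPKM in knockout, 40.8 and 39.8 FPKM in heterozygous and 40.5 and 41.6 FPKM in wildtype libraries. The knockout libraries were below all controls, as for 6.26% of all genes, without passing (-0.23, adjusted p = 0.335 by limma against wildtype). This was the lowest adjusted p of the further bipolar genes. Elavl4, an RNA-binding protein gene of ganglion and amacrine cells, had 3.999, 4.30 and 4.02 FPKM in knockout, 4.99 and 5.12 FPKM in heterozygous and 5.75 and 5.71 FPKM in wildtype libraries. Its groups did not overlap and were ordered knockout, heterozygous, wildtype from low to high, without passing (-0.40 against wildtype, adjusted p = 0.155 by limma). That p was the lowest of the further ganglion cell genes, and the share of all genes in this order was not counted.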

How the data were processed

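Polyadenylated RNA of 7 mouse eye libraries was sequenced after preparation with a kit that does not mark strand, per the labels' protocols. The authors deposited FPKM values per gene. The submitters' processing notes name HTSeq, DESeq, Bowtie2 2.0.6 and TopHat2 2.0.9, and the builds mm10 and GRCm38, without roles or order, and further steps are not given in the sources used here. The deposited FPKM values were multiplied by merged exon lengths of GENCODE annotation on GRCm38, which gave whole reads for 96.8% of values above 0 (tolerance 0.01), and 12244707 to 14339701 reads a library. These reads entered only an alternative, and they cover 42 of the 44 genes.

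Groups followed the genotype labels. The tested set held 15472 genes whose mean over the libraries was 1 FPKM or more. The test was limma 3.58.1 (R 4.3.3) on log2(FPKM + 1), with a mean-variance trend and Benjamini-Hochberg adjustment over all of them (threshold 0.05). Fold changes are on that scale and understate changes of low genes. A fit over 3 genotypes gave the pairwise comparisons, and a fit of knockout against the 4 controls gave the other. Replicate numbers were not taken to pair samples. Alternatives were the pseudocount, filter, scaling, variance model, voom, covariates, a replicate block and left-out libraries.

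The genes and lists were chosen with earlier results of these data known, so no list test is given. Described in full are, per cell type, the 2 genes with the smallest p against wildtype and against all controls and the 2 with the highest level, with called genes and at most 3 of each further list. Other genes named were added after their values were seen. Exon overlaps were counted without regard to strand.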

Additional observations from a re-analysis of the deposited data

Results flagged for a closer look

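Heterozygous 1 lay apart from the other 3 control libraries for 2 of the 41 tested genes. For Vsx1, the cone bipolar homeodomain gene, it had 9.002 FPKM, against 7.23 to 7.42 FPKM in the others, and its gap to the nearest was 0.896 of the range of the 4 controls. For Lhx1, the horizontal cell gene, it had 1.79 FPKM, against 0.978 to 1.06 FPKM in the others, a gap of 0.902 of the range. Gaps past the 95% limit of Dixon's test arise by chance in about 1 in 20 groups, and 41 genes were examined.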

How the results depend on the processing

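No inner retinal gene was called in any of the 4 comparisons under any alternative; the lowest adjusted p among them was 0.0934. The numbers of the libraries were not taken as pairs. The correlation of deviations from the genotype means was 0.43 for knockout 1 and heterozygous 1 and 0.27 for knockout 2 and heterozygous 2. It was 0.09 for knockout 1 and wildtype 1, and -0.02 for knockout 2 and wildtype 2 and for heterozygous 1 and wildtype 1. These values cannot decide on pairing, since deviations within a genotype of 2 libraries mirror each other. Knockout 1 and heterozygous 1 are also both lens-rich. The replicate block called 0 of the 41 genes, and over all genes 3 for knockout against wildtype, 0 against heterozygous and 38 against all controls, where the fits without it called 50, 49 and 95; with voom these were 77, 77 and 151.

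Rescaling every library to the same FPKM sum gave medians of -0.22 (bipolar), -0.30 (amacrine) and -0.30 (ganglion) for knockout against wildtype, -0.044 (bipolar) and -0.15 (ganglion) against heterozygous, -0.12 (bipolar), -0.20 (amacrine) and -0.19 (ganglion) against all controls, and -0.14 (bipolar) for heterozygous against wildtype. All tested genes moved to -0.16, -0.07, -0.12 and -0.08 in those comparisons. The bipolar median against wildtype was -0.028 with the lens level as a covariate and -0.0042 without both lens-rich libraries. Without both, the medians against heterozygous were -0.0075 (bipolar), 0.087 (amacrine), 0.095 (horizontal) and 0.032 (ganglion), and heterozygous against wildtype gave -0.23 (horizontal) and -0.17 (ganglion). The causes were not tested.

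Leaving out each library in turn, the bipolar median ran from -0.086 to -0.0042 against wildtype, -0.0011 to 0.0398 against heterozygous and -0.037 to 0.021 against all controls. Against heterozygous, the amacrine median ran from -0.091 to 0.096 and the horizontal from -0.47 to 0.022. For heterozygous against wildtype the ranges were -0.13 to 0.0031 (amacrine), -0.23 to 0.37 (horizontal) and -0.17 to -0.00015 (ganglion). The Prox1 change against wildtype ran from -0.24 to 0.032, the high end without wildtype 2. The remaining 367 summary values and 360 single-gene values kept their direction or moved by less than the spread, and 10 Gnb3 values lost the call in the same direction. Fitting only the groups compared gives no separate value against all controls. With 2 or 3 libraries a genotype, changes of a few percent cannot be resolved, and some larger ones were not called either. Nefl, at -0.26 on the log2 scale against wildtype, had an adjusted p of 0.542 by limma. For Slc32a1 the interval of the log2 change against wildtype ran from -0.79 to 0.35. The lack of calls therefore does not exclude changes as large as that of Nefl.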
